A study of Mus musculus with 12 samples.

Results

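The 10 lipid mediator genes described here were followed by the accessibility of their chromatin in mouse T helper cells that had or lacked the glucocorticoid receptor and were cultured with or without a glucocorticoid. They were the leukotriene receptor genes Cysltr1, Cysltr2 and Ltb4r1, the prostaglandin E2 receptor genes Ptger2 and Ptger4, the synthesis genes Pla2g4a, Alox5, Alox5ap and Ptgs2, and Anxa1. Their peaks were 141 of the 222105 ATAC-seq peaks of the series. A peak belonged to the gene whose protein-coding span held its centre, or otherwise to the nearest such span within 50 kb. Of the 141 peaks, 127 had enough counts to be tested, as had 202587 of all peaks, and 14 did not. ATAC-seq cuts open chromatin with a transposase, so a peak is a stretch of DNA that the enzyme could reach, and its count measures accessibility and not transcription.

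Lipid mediators of this kind are made from arachidonic acid, which cytosolic phospholipase A2 (Pla2g4a) frees from membranes. 5-lipoxygenase (Alox5), helped by its activating protein (Alox5ap), turns it into leukotrienes, and cyclooxygenase 2 (Ptgs2) turns it into the precursor of the prostaglandins. Prostaglandin E2 acts on T cells largely through the cyclic AMP-coupled receptors EP2 (Ptger2) and EP4 (Ptger4), and annexin A1 (Anxa1) is a protein long known as glucocorticoid-inducible in many cell types.

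The 4 groups held 3 libraries each. In all of them naive CD4+ T cells, originally from spleen and dLN of C57/B6 mice, had been turned in vitro into Th17Hom cells, the homeostatic form of the IL-17-producing T helper cell. WT Dex cells were wild type and received dexamethasone (Dex), a synthetic glucocorticoid, over 2 days, and WT control cells were wild type without it. cKO Dex and cKO control cells came from GR cKO mice, in which the glucocorticoid receptor (GR) is knocked out conditionally, and were cultured with and without Dex. The sources used here give neither the Cre line behind the knockout nor the animals or cultures behind the 3 libraries of a group. The p-values therefore speak of the spread between these libraries, which may be technical. Each library was made from 6000 sorted cells.

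Library totals ran from 12988437 to 25081591 counts. Levels are given in CPM, the counts relative to the scaled library size. The summed level of Nr3c1, the gene that encodes the receptor, was 115 to 125 CPM in cKO Dex and 114 to 125 CPM in WT Dex libraries, a log2 difference of -0.00435 ± 0.0507 (SE; edgeR adjusted p = 0.987), so these counts do not check the genotype labels. The start peaks of 5 of 5 T cell marker genes in the table of gene starts were open (Cd3e, Cd3d, Cd3g, Lck and Cd5). Their median was 18.5 CPM per kb. Of 5 Th17 markers there, Il17f stood at 20.9, Ccr6 at 17.6, Il17a at 3.26 and Il23r at 2.78 CPM per kb. Il22 had no start peak. A start peak was found for 1 of 3 B cell markers (Ebf1, 3.02) and 1 of 4 CD8 T and NK markers (Cd8a, 2.14). Start levels therefore did not set every Th17 marker apart from markers of other cell types. Of 9 myeloid, mast cell and granulocyte markers in that table, 4 had a start peak, the highest at 4.48 CPM per kb, and Cpa3, Fcer1a, Mpo, S100a8 and S100a9 had none. Their summed start level was 7.48 to 8.56 CPM in WT Dex and 7.59 to 8.31 CPM in WT control libraries, and 7.98 to 9.84 CPM in cKO Dex and 7.74 to 10.3 CPM in cKO control libraries. In bulk libraries a change in the share of cells with an open site and a change within each cell cannot be told apart.

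The sequences below are the 250 bases before the start of 4 of these genes, as listed by RefSeq on build GRCm38.p6, the build of the peaks (mm10). Cysltr2 is shown because it carried the peaks that passed the test, Ptger2 and Ptger4 because their starts were the most open of the 8 genes with a listed start, and Alox5 because no peak covered its start. Each reads 5′ to 3′ in the direction of the gene and ends at the base before the start. Capitals mark AGAACA, one arm of the palindrome that the glucocorticoid receptor binds.
Cysltr2 (chr14:73049115-73049364, minus strand): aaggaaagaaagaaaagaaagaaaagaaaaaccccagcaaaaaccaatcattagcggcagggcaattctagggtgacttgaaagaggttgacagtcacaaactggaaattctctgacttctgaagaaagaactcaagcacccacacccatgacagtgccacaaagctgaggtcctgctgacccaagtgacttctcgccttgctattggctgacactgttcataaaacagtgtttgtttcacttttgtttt
Ptger2 (chr14:44987861-44988110, plus strand): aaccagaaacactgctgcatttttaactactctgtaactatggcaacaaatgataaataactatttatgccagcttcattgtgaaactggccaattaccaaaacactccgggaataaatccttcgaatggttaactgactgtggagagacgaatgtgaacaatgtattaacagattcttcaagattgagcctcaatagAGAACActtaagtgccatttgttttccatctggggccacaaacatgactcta
Ptger4 (chr15:5244188-5244437, minus strand): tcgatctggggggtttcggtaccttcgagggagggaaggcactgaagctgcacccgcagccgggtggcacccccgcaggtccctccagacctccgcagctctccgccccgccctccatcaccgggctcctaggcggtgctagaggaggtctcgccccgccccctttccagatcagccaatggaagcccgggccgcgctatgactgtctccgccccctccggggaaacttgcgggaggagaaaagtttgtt
Alox5 (chr6:116461179-116461428, minus strand): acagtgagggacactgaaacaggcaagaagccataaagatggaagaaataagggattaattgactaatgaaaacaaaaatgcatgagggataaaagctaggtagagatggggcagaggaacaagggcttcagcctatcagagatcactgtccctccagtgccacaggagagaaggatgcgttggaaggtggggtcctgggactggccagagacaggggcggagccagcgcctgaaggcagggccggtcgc

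Promoters of 300 bases, from 250 before to 50 after the start, were searched on both strands for the full palindrome (AGAACA and TGTTCT with any 3 bases between), its arm AGAACA, the AP-1 motif TGANTCA, the cyclic AMP response element TGACGTCA and the TGACG that lies within it. The table held 8 of the 10 genes, without Cysltr1 and Alox5ap. None of the promoters of these 8 genes held the full palindrome, which 0.00941% of 21263 promoters held, nor TGANTCA (6.99% of promoters) or TGACGTCA (2.23%). Ptger2 held AGAACA beginning 52 bases before the start and once more within the first 50 bases after it. Pla2g4a held AGAACA once, in the promoter of the second of its listed starts. AGAACA was found in 16.2% of promoters. Ptgs2 held TGACG once, on the strand opposite to the gene, as did 23.6% of promoters on either strand. The printed sequences had 66.8% G and C before Ptger4, 52.8% before Alox5, 42.8% before Cysltr2 and 38.0% before Ptger2.

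Of the genes with a listed start, the 4 receptor genes had more open starts than Anxa1 and the synthesis genes. Per kb of peak, the mean level over all 12 libraries was 16.7 CPM at the Ptger4 start, 16.1 at Ptger2, 9.35 at Cysltr2 and 6.09 at Ltb4r1. It was 3.86 CPM per kb at Anxa1, 3.83 at Ptgs2 and 2.72 at Pla2g4a. These levels are of the peak over the listed start alone, not of the region around it. Near the Anxa1 start, a peak centred 1246 bases into the gene stood at 22.94 CPM per kb. Another, 3200 bases upstream, stood at 18.27 CPM per kb. The start of Alox5 lay under no tested peak, and Cysltr1 and Alox5ap had no start in the table. Among 17274 genes with a listed start, of which 62.7% had a tested peak on it, Ptger4 stood at percentile 75.2, Ptger2 at 74.1, Cysltr2 at 57.2, Ltb4r1 at 49.5, Anxa1 at 44.7, Ptgs2 at 44.6 and Pla2g4a at 41.6. Starts without a tested peak share the lowest rank in these percentiles. The median over covered starts alone was 13.7 CPM per kb, and only Ptger4 and Ptger2 lay above it. The group means of Ptger4 (15.0 to 18.2 CPM per kb) and Ptger2 (15.3 to 17.0) overlapped. Those of Anxa1 (3.43 to 4.36) and Ptgs2 (3.44 to 4.16) overlapped too. The group means of Cysltr2 (9.17 to 9.65) lay above all those of Ltb4r1 (5.98 to 6.23).

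**Figure D1:**
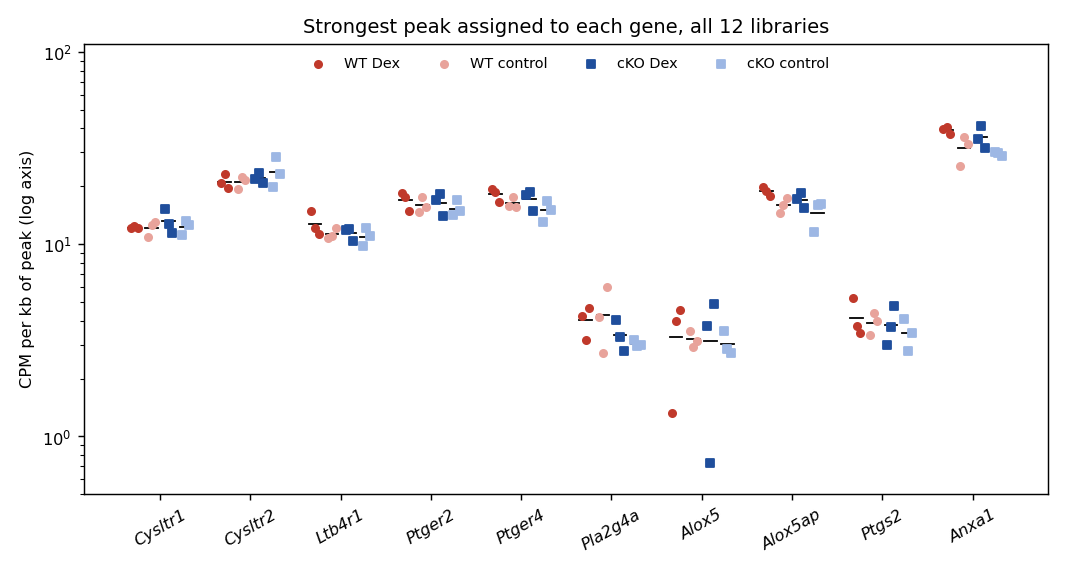
Level of the strongest tested peak of each of the 10 genes in every library, in CPM per kb of peak on a log axis. Points are libraries, 3 per group, and short lines are group means. The peaks of Pla2g4a, Alox5 and Ptgs2 are the weakest, and the WT Dex points lie above all WT control points for Alox5ap and Anxa1 and overlap them for the other 8 genes (the groups do not overlap at 13.9% of all tested peaks).

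Dex in WT cells was tested first. Of the 127 tested peaks of these genes, 1 was called (0.787%), against 0.534% of all tested peaks, where called means an adjusted p under 0.05 in edgeR's quasi-likelihood test with Benjamini-Hochberg adjustment over all 202587 peaks. The called peak belonged to Cysltr2 and was lower in WT Dex cells, as were 0.114% of all tested peaks. No peak of Cysltr1, Ltb4r1, Ptger2, Ptger4, Pla2g4a, Alox5, Alox5ap, Ptgs2 or Anxa1 was called. At an unadjusted p under 0.05 stood 9 of the 127 peaks (7.09%), against 8.32% of all tested peaks, and 4 of the 9 were higher and 5 lower. The WT Dex libraries all lay on one side of the WT control libraries at 19 of the 127 peaks (15.0%), against 13.9% of all tested peaks. The median log2 fold change was -0.0143 over the 127 peaks and -0.00147 over all tested peaks. The split of all called peaks, 851 higher and 230 lower, was 1032 and 725 when libraries were scaled by total counts alone.

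**Figure D2:**
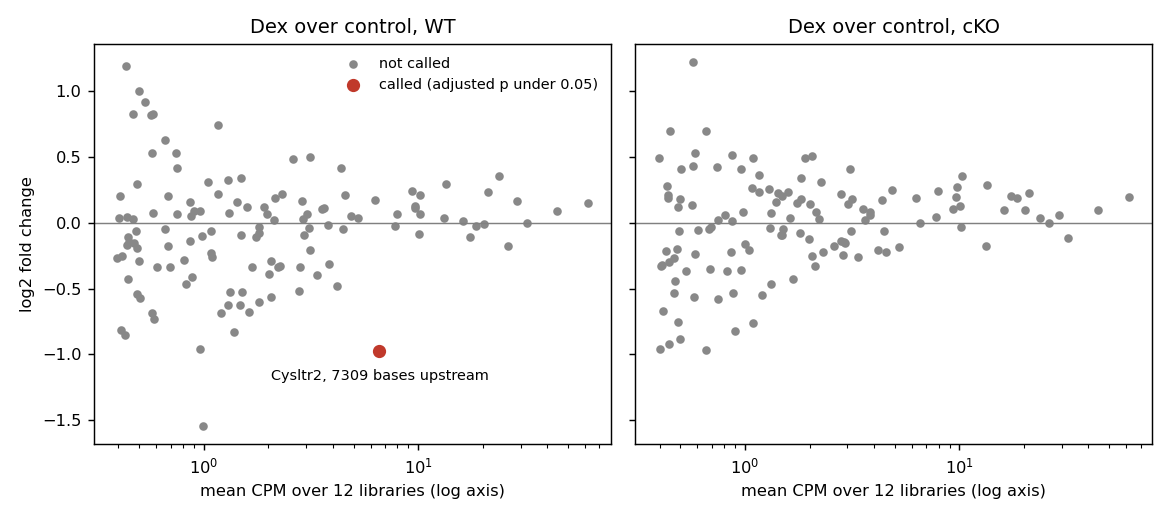
Log2 fold change of Dex over control against mean CPM over the 12 libraries (log axis) for the 127 tested peaks, in WT cells on the left and cKO cells on the right. The called peak, 7309 bases upstream of Cysltr2, stands at -0.97 in WT cells, and most of the other points beyond 0.5 in either direction are weak peaks.

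Cysltr2 encodes a receptor for cysteinyl leukotrienes and had 35 peaks, 33 of them tested. The called peak lay between genes at chr14:73056142-73056704 (mm10), its centre 7309 bases upstream of the Cysltr2 start, which is base 73049114 on the minus strand. Its level was 4.16, 3.91 and 3.74 CPM in the WT Dex libraries, against 8.09, 7.05 and 8.08 CPM in the WT control libraries. It was 7.08, 8.19 and 6.66 CPM in the cKO Dex libraries and 7.56, 7.05 and 7.42 CPM in the cKO control libraries. All 3 WT Dex libraries were below each of the other 9, and the cKO Dex and cKO control libraries overlapped.

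The mean of that Cysltr2 peak was 3.94 ± 0.21 CPM in WT Dex and 7.74 ± 0.60 CPM in WT control cells (SD, n = 3 each), a 0.509-fold level. The log2 fold change was -0.97 ± 0.17 (SE; 95% interval -1.32 to -0.63; edgeR adjusted p = 0.000307). In cKO cells the log2 fold change was -0.0036 ± 0.16, with a 95% interval from -0.32 to 0.31. The difference between these Dex effects, the interaction, was -0.97 ± 0.23 and was not called (edgeR adjusted p = 0.171). Among the alternatives run it was called in 1, with the share of counts in the strongest 10% of peaks as a covariate (edgeR adjusted p = 0.0391). That share was 60.83 to 63.47% in WT Dex, 60.63 to 62.04% in WT control, 58.13 to 61.63% in cKO Dex and 57.92 to 60.35% in cKO control libraries. With the covariate the Dex effect in WT cells was -1.004 (edgeR adjusted p = 0.000157).

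**Figure D3:**
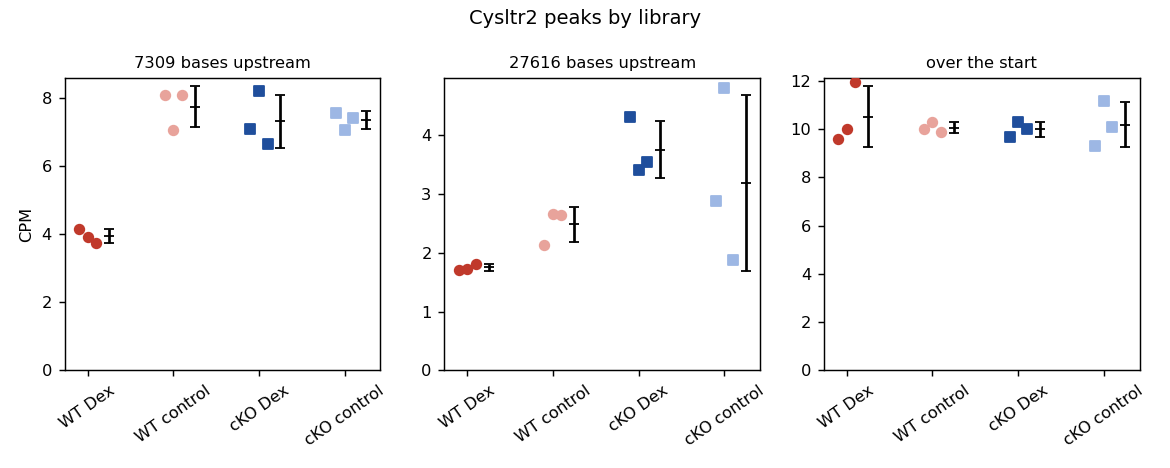
CPM of 3 Cysltr2 peaks in every library, with the group mean ± SD (n = 3) beside the points. At the peak 7309 bases upstream the WT Dex libraries (3.74 to 4.16 CPM) lie below all others, at the peak 27616 bases upstream they lie at 1.702 to 1.81 CPM, and over the start all 4 groups overlap near 10 CPM.

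The peak over the Cysltr2 start was not called. It spanned chr14:73048930-73050018 and stood at 9.58, 9.99 and 11.96 CPM in WT Dex and 9.99, 10.3 and 9.90 CPM in WT control libraries, which overlapped. Its log2 fold change was 0.06 ± 0.14 (95% interval -0.22 to 0.35; edgeR adjusted p = 0.959). The strongest Cysltr2 peak lay 38886 bases upstream at chr14:73087273-73088728 and stood at 30.2, 33.9 and 28.4 CPM in WT Dex and 28.3, 32.7 and 31.4 CPM in WT control libraries, with a log2 fold change of -0.0018 ± 0.11. The groups overlapped there too.

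None of the other upstream Cysltr2 peaks passed the test for Dex. Upstream of the start peak lay 13 tested peaks, from 7309 to 42485 bases away. Of the 12 without the called one, 9 had a negative log2 fold change for Dex in WT cells, with a median of -0.46, and 9 had one in cKO cells, with a median of -0.22. They were not the same 9 peaks, and 6 of the 12 were negative in both genotypes. Of all tested peaks 50.2% were negative in WT and 50.5% in cKO cells. The lowest of these values in WT cells was -1.55 ± 0.43, at a weak peak 28731 bases upstream that stood at 0.44, 0.33 and 0.79 CPM in WT Dex and 1.68, 1.58 and 1.40 CPM in WT control libraries (edgeR adjusted p = 0.0816). It is named after its values were seen, and the 12 upstream peaks were set apart because of the called one. Neighbouring peaks in the same libraries are not independent of each other. Of the 33 tested Cysltr2 peaks, 17 were under 2 CPM. The summed level of the 12 peaks was 43.24, 45.42 and 40.60 CPM in WT Dex and 41.95, 48.78 and 48.08 CPM in WT control libraries, which overlapped. It was 47.99, 49.97 and 46.16 CPM in cKO Dex and 43.56, 61.58 and 50.72 CPM in cKO control libraries, which overlapped too. Within the span 2 of 6 peaks were negative in WT cells, and beyond the other end of the gene 9 of 13 were, with a median of -0.04.

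**Figure D4:**
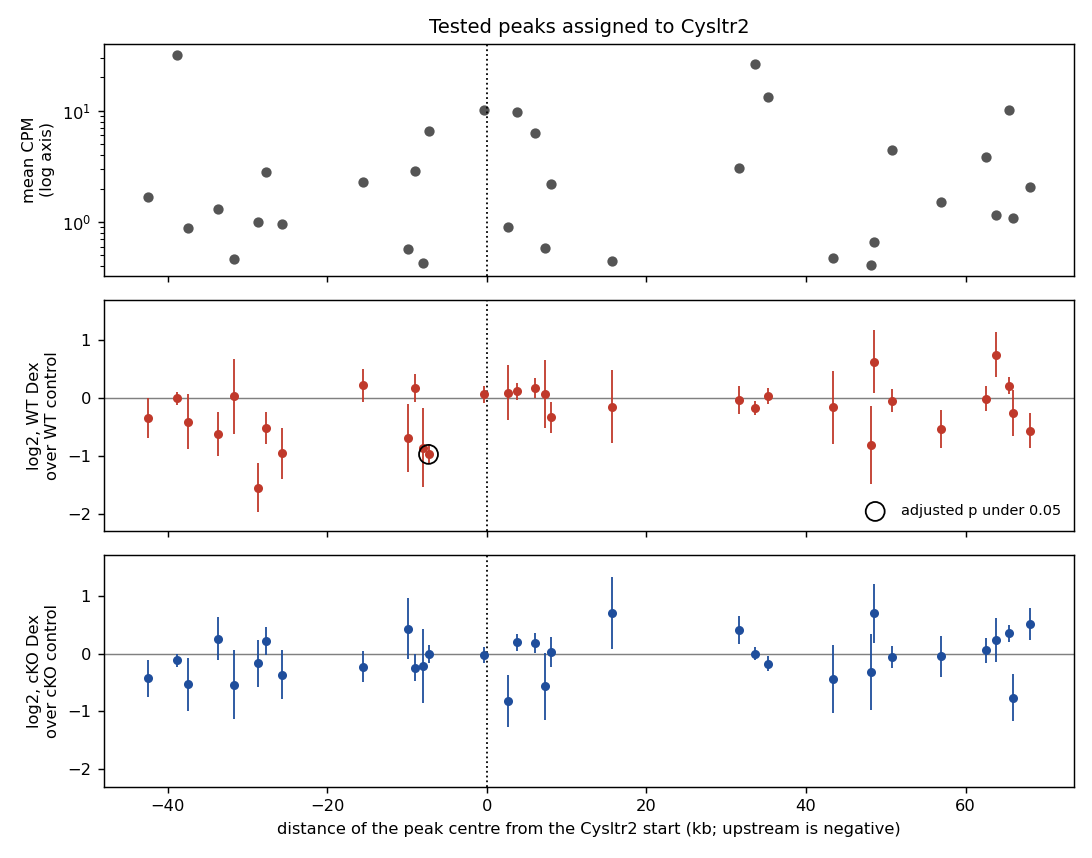
The 33 tested Cysltr2 peaks by distance of their centres from the gene start (kb, upstream negative, dotted line at the start). The top panel gives mean CPM on a log axis, and the lower panels give the log2 fold change ± SE of Dex over control in WT and in cKO cells. The circled peak in WT cells is the called one at -0.97, and it stands at about 0 in cKO cells.

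With Dex present, cKO cells were compared with WT cells. Of the 127 tested peaks, 2 were called (1.57%), against 0.17% of all tested peaks, and both were Cysltr2 peaks that were higher in cKO Dex than in WT Dex cells, as were 0.04% of all tested peaks. This comparison uses the same WT Dex libraries as the comparison of Dex in WT cells. At an unadjusted p under 0.05 stood 10 of the 127 peaks (7.87%), against 8.35% of all tested peaks, and 9 of the 10 were higher and 1 lower. The median log2 fold change was 0.0876 over the 127 peaks and -0.00101 over all tested peaks. Negative values made up 41.7% of the 127 peaks and 50.1% of all tested peaks. The cKO Dex and WT Dex libraries did not overlap at 17 of the 127 peaks (13.4%), against 12.7% of all tested peaks. The split of all called peaks was 81 higher and 264 lower in cKO Dex, and 504 and 390 with scaling by total counts.

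The first of the 2 was the peak 7309 bases upstream of Cysltr2, 1.86-fold as high in cKO Dex as in WT Dex cells. The log2 fold change was 0.90 ± 0.17 (95% interval 0.56 to 1.23; edgeR adjusted p = 0.00269). Without the second cKO Dex library it was 0.80 and no longer called (edgeR adjusted p = 0.0524). The second called Cysltr2 peak lay at chr14:73076568-73076892, 27616 bases upstream of the start. It stood at 4.31, 3.40 and 3.54 CPM in cKO Dex and 1.702, 1.73 and 1.81 CPM in WT Dex libraries, and at 2.88, 4.80 and 1.87 CPM in cKO control and 2.14, 2.66 and 2.64 CPM in WT control libraries. All 3 cKO Dex libraries were above all 3 WT Dex libraries, and the control libraries of the genotypes overlapped. Its log2 fold change in Dex was 1.10 ± 0.26 (edgeR adjusted p = 0.0474), and the call was lost in 9 of the 12 fits that left out 1 library, with adjusted p up to 0.281. For Dex in WT cells it had -0.52 ± 0.27 and was not called (edgeR adjusted p = 0.638), though its WT Dex libraries lay below all WT control libraries.

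In control cells neither Cysltr2 peak was called between genotypes. The log2 fold change of cKO over WT was -0.07 ± 0.16 at the nearer peak and 0.36 ± 0.25 at the farther one. None of the 127 peaks was called in that comparison by edgeR (background 0.0104% of all tested peaks) or limma-voom, nor any of the 5 to which DESeq2 gave an adjusted p, and 5 had an unadjusted p under 0.05 (3.94%, against 7.69% of all tested peaks). Dex in cKO cells gave 0 calls by edgeR (background 0.00296%) and limma-voom and 0 among the 53 peaks with an adjusted p from DESeq2, with 3 peaks at an unadjusted p under 0.05 (2.36%, against 5.84%). The libraries did not overlap at 11 of the 127 peaks (8.66%, against 14.5% of all tested peaks) between genotypes in control cells and at 10 (7.87%, against 10.8%) for Dex in cKO cells. The interaction gave 0 calls by edgeR (background 0.0276%) and limma-voom and 0 among the 59 peaks with an adjusted p from DESeq2, with 6 peaks at an unadjusted p under 0.05 (4.72%, against 5.65%).

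Cysltr1, which encodes the other receptor for cysteinyl leukotrienes, had 7 peaks, 6 of them tested and 5 under 2 CPM. Its span overlaps that of Gm5127, and 5 of the 7 peaks were assigned to both genes. The strongest peak, chrX:106602306-106603928, covered one end of the span and stood at 19.6, 20.1 and 19.7 CPM in WT Dex and 17.7, 20.4 and 21.3 CPM in WT control libraries. The WT Dex libraries lay inside the range of the WT control libraries, and the log2 fold change was -0.0054 ± 0.12 (95% interval -0.25 to 0.24). The smallest p for Dex in WT belonged to a weak peak at 0.76, 0.34 and 0.68 CPM in WT Dex and 0.38, 0.15 and 0.45 CPM in WT control libraries (edgeR adjusted p = 0.779).

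Ltb4r1 encodes the high-affinity receptor for leukotriene B4 and had 2 peaks, both tested. The peak over its start, chr14:55765637-55766918, stood at 7.69, 7.25 and 8.05 CPM in WT Dex and 9.15, 7.10 and 7.38 CPM in WT control libraries, which overlapped (log2 fold change -0.03 ± 0.16). The stronger one, chr14:55767169-55769666, also overlaps Adcy4 and stood at 37.2, 30.4 and 28.1 CPM in WT Dex and 26.9, 27.6 and 30.5 CPM in WT control libraries. These overlapped as well, with a log2 fold change of 0.17 ± 0.11 (edgeR adjusted p = 0.765).

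Ptger2 had 37 peaks, 32 of them tested and 18 of those under 2 CPM. Its strongest peak covered the start at chr14:44988063-44990808 and stood at 50.5, 48.4 and 40.8 CPM in WT Dex and 40.4, 48.0 and 42.8 CPM in WT control libraries, a log2 fold change of 0.09 ± 0.11. The groups overlapped. The Ptger2 peak with the smallest p for Dex in WT lay 45981 bases beyond the gene at chr14:45048937-45050666, close to the 50 kb limit. It stood at 28.5, 27.7 and 30.2 CPM in WT Dex and 22.6, 23.0 and 21.8 CPM in WT control libraries, against 24.9, 21.97 and 20.2 CPM in cKO Dex and 21.7, 22.8 and 20.8 CPM in cKO control libraries. All 3 WT Dex libraries were above the other 9. Its log2 fold change was 0.36 ± 0.11 and was not called (edgeR adjusted p = 0.17), though it was called when the share of counts in the strongest peaks was a covariate (0.33, edgeR adjusted p = 0.0472). For cKO over WT in Dex it had -0.36 ± 0.11 (edgeR adjusted p = 0.214).

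Ptger4 had 10 peaks, 9 of them tested, and the most open of the listed starts. Its start peak, chr15:5241348-5245053, stood at 71.5, 68.9 and 61.6 CPM in WT Dex and 58.8, 65.5 and 57.7 CPM in WT control libraries. It stood at 66.7, 68.9 and 55.0 CPM in cKO Dex and 48.4, 62.0 and 56.1 CPM in cKO control libraries. The groups overlapped in both genotypes, with log2 fold changes of 0.15 ± 0.10 in WT and 0.20 ± 0.10 in cKO cells (edgeR adjusted p = 0.767 and 0.859). A weaker peak inside the gene, chr15:5239430-5240694, had the smallest p for Dex in WT, at 4.85, 6.30 and 4.48 CPM in WT Dex and 4.80, 3.10 and 3.96 CPM in WT control libraries (log2 fold change 0.42 ± 0.20; edgeR adjusted p = 0.583).

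Pla2g4a had 9 peaks, all tested, all inside the gene and all under 2 CPM on average over the libraries. The peak over its start stood at 0.44, 0.22 and 0.62 CPM in WT Dex and 0.46, 0.69 and 0.74 CPM in WT control libraries, which overlapped. The log2 fold change was -0.57 ± 0.62, with a 95% interval from -1.82 to 0.67. The strongest peak, 55027 bases into the gene, stood at 2.02, 1.51 and 2.21 CPM in WT Dex and 1.98, 1.28 and 2.85 CPM in WT control libraries (log2 fold change -0.11 ± 0.31).

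Alox5 had 5 peaks, all tested, all inside the gene and all under 1 CPM on average. The strongest stood at 0.32, 0.95 and 1.08 CPM in WT Dex and 0.84, 0.69 and 0.74 CPM in WT control libraries, which overlapped (log2 fold change 0.07 ± 0.51; 95% interval -0.95 to 1.09). Depth limits what such weak peaks can show, since that interval runs nearly as low as the -0.97 of the called Cysltr2 peak.

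Alox5ap had 18 peaks, 15 of them tested. The strongest lay 18981 bases outside the gene at chr5:149245389-149246658 and stood at 25.3, 24.2 and 22.6 CPM in WT Dex and 18.4, 20.4 and 22.1 CPM in WT control libraries. All 3 WT Dex libraries were above the WT control libraries, but the log2 fold change of 0.24 ± 0.12 was not called (edgeR adjusted p = 0.615). In cKO cells it stood at 21.8, 23.6 and 19.5 CPM in cKO Dex and 14.7, 20.2 and 20.6 CPM in cKO control libraries, which overlapped, with a log2 fold change of 0.22 ± 0.12. The peak with the smallest p for Dex in WT, 36895 bases outside the gene, stood at 3.59, 4.24 and 3.80 CPM in WT Dex and 2.14, 2.37 and 3.55 CPM in WT control libraries (log2 fold change 0.50 ± 0.23; edgeR adjusted p = 0.532).

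Ptgs2 had 3 peaks, 2 of them tested. The peak over its start, chr1:150099598-150100386, stood at 4.16, 2.96 and 2.72 CPM in WT Dex and 2.67, 3.45 and 3.13 CPM in WT control libraries. The groups overlapped, with a log2 fold change of 0.07 ± 0.24 (95% interval -0.40 to 0.54; edgeR adjusted p = 0.977). The other tested peak, 43334 bases beyond the gene, stood at 0.88, 0.56 and 0.62 CPM in WT Dex and 0.53, 0.44 and 0.45 CPM in WT control libraries (log2 fold change 0.53 ± 0.51).

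Anxa1 had 15 peaks, 14 of them tested and 10 of those under 2 CPM. The peak over its start, chr19:20390457-20390825, stood at 2.02, 0.95 and 1.36 CPM in WT Dex and 1.22, 0.89 and 1.69 CPM in WT control libraries, which overlapped (log2 fold change 0.16 ± 0.37; 95% interval -0.58 to 0.90). The strongest Anxa1 peak lay 33661 bases upstream at chr19:20424135-20424529. It stood at 15.6, 16.0 and 14.7 CPM in WT Dex and 10.1, 14.3 and 13.2 CPM in WT control libraries, which did not overlap. In cKO cells it stood at 13.9, 16.3 and 12.6 CPM in cKO Dex and 11.9, 11.7 and 11.4 CPM in cKO control libraries, which did not overlap either. The log2 fold change was 0.29 ± 0.13 in WT cells (edgeR adjusted p = 0.542) and 0.29 ± 0.13 in cKO cells (edgeR adjusted p = 0.848), and neither was called. The interaction at this Anxa1 peak was 0.0032 ± 0.19.

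Outside Cysltr2, the peak of each gene with the smallest p for the interaction had an edgeR adjusted p of at least 0.883. At Alox5 it was a weak peak at 0.57, 0.45 and 0.74 CPM in WT Dex and 0.53, 0.049 and 0.33 CPM in WT control libraries, and 0.41, 0.22 and 0.53 CPM in cKO Dex and 0.48, 0.26 and 1.42 CPM in cKO control libraries, all groups overlapping (interaction 1.89 ± 0.94). At the Ptger2 peak 45981 bases beyond the gene the interaction was 0.32 ± 0.16. It was 0.57 ± 0.32 at the Alox5ap peak 36895 bases outside the gene and 0.43 ± 0.29 at a peak inside Ptger4. It was 1.28 ± 0.81 at Pla2g4a and -1.26 ± 0.79 at Cysltr1, each at a peak under 1 CPM. It was 0.11 ± 0.16 at the stronger Ltb4r1 peak and -0.07 ± 0.34 at the Ptgs2 start. At Anxa1 it was -0.79 ± 0.44, at a peak inside the gene with 0.88, 2.01 and 1.25 CPM in WT Dex and 1.98, 1.63 and 2.68 CPM in WT control libraries, which overlapped.

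Counts were also summed over all peaks of a gene, to give 1 value per gene. None of the 10 sums was called for Dex in WT by edgeR (background 2.64% of 17398 gene sums) or limma-voom, nor any of the 8 with an adjusted p from DESeq2, and 1 had an unadjusted p under 0.05 (13.3% of all gene sums had). That one was Cysltr2, at 144, 152 and 146 CPM in WT Dex and 149, 162 and 168 CPM in WT control libraries, a log2 fold change of -0.12 ± 0.05 (95% interval -0.23 to -0.01; edgeR adjusted p = 0.302). The Anxa1 sum was 55.5, 48.9 and 48.4 CPM in WT Dex and 43.5, 50.5 and 52.9 CPM in WT control libraries (log2 fold change 0.05 ± 0.07). As fold changes, the 95% intervals for Dex in WT were 0.933 to 1.14 for Anxa1, 0.99 to 1.15 for Ptger4 and 0.938 to 1.07 for Ptger2. They were wider for the weak genes, 0.742 to 1.42 for Ptgs2, 0.752 to 1.24 for Pla2g4a and 0.696 to 1.72 for Alox5.

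No sum was called for Dex in cKO cells either (background 0.00575%; 2 at an unadjusted p under 0.05, Anxa1 and Ptger4, against 8.14% of all gene sums), the interaction (background 0.224%; 0 at an unadjusted p under 0.05, against 7.47%) or genotype in control cells (background 0.23%; 1 at an unadjusted p under 0.05, Cysltr2, against 13.6%). In these 3 comparisons limma-voom called 0, and DESeq2 called 0 among the 10, 4 and 6 sums to which it gave an adjusted p. For cKO over WT in Dex, edgeR called 0 of the 10 sums (background 2.31%), limma-voom 0 and DESeq2 1 of the 7 with an adjusted p, and 2 had an unadjusted p under 0.05, Cysltr2 and Cysltr1, against 15.4% of all gene sums. The Cysltr2 sum was 162, 171 and 166 CPM in cKO Dex and 144, 152 and 146 CPM in WT Dex libraries, which did not overlap, with a log2 fold change of 0.18 ± 0.05 (edgeR adjusted p = 0.069). With the replicate number as a block it was 0.18 ± 0.04 and called (edgeR adjusted p = 0.00723), and the block gave 1017 called peaks over the whole series in this comparison, against 345 without it. Without Dex and without the block, the Cysltr2 sum was also higher in cKO cells, by 0.12 ± 0.05 (edgeR adjusted p = 0.324). The control libraries of the genotypes overlapped, and the interaction of the sum was -0.06 ± 0.07 (edgeR adjusted p = 0.906). The Cysltr1 sum was 30.8, 26.1 and 25.8 CPM in cKO Dex and 22.8, 22.1 and 25.8 CPM in WT Dex libraries (log2 fold change 0.23 ± 0.09; edgeR adjusted p = 0.199).

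**Figure D5:**
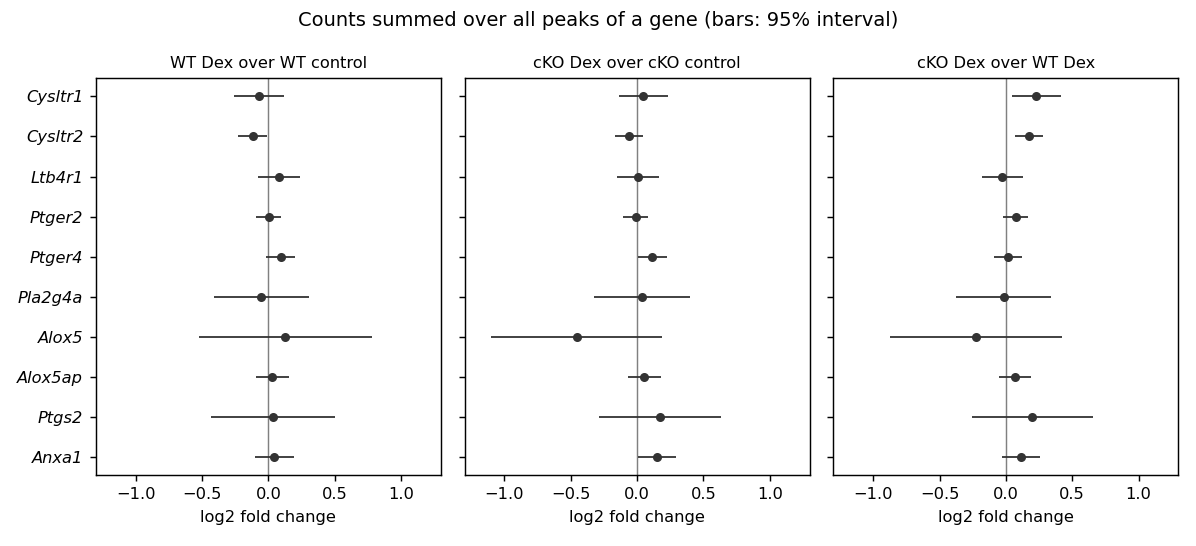
Log2 fold change of the counts summed over all peaks of each gene, with 95% intervals from edgeR, for WT Dex over WT control, cKO Dex over cKO control and cKO Dex over WT Dex. No sum was called in any of the 3 comparisons, and the intervals of Alox5, Ptgs2 and Pla2g4a are the widest.

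Beyond these 10 genes, 73 other genes of the leukotriene, prostanoid, phospholipase and annexin pathways were examined, 65 of which had tested peaks, 749 in all. For Dex in WT cells 2 of the 749 peaks were called and higher (0.267%, against 0.42% of all tested peaks called higher), 0 were called and lower, and 0 were called in either direction for Dex in cKO cells. The median log2 fold change for Dex in WT was -0.0446 over 163 leukotriene and lipoxygenase peaks, -0.0263 over 229 prostanoid peaks, -0.0834 over 156 phospholipase and arachidonate supply peaks and 0.0807 over 201 annexin and formyl peptide receptor peaks.

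The higher peak of the phospholipase group lay within Lpcat3, which encodes an enzyme that puts arachidonic acid back into phospholipids, at chr6:124693996-124694686. It stood at 14.8, 17.8 and 13.4 CPM in WT Dex and 6.03, 7.44 and 7.96 CPM in WT control libraries, which did not overlap (log2 fold change 1.09 ± 0.15; edgeR adjusted p = 1.97e-06). It stood at 8.38, 9.91 and 8.399 CPM in cKO Dex and 5.64, 7.83 and 6.58 CPM in cKO control libraries, which did not overlap either, with a log2 fold change of 0.41 ± 0.16 that was not called (edgeR adjusted p = 0.838). The interaction was 0.68 ± 0.22 and not called (edgeR adjusted p = 0.613). For cKO over WT in Dex the Lpcat3 peak had a log2 fold change of -0.79 ± 0.15 (edgeR adjusted p = 0.00199), and the call was lost without the second WT Dex library (edgeR adjusted p = 0.114) or the first cKO Dex library (0.0571).

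The higher peak of the annexin group lay within Anxa4, a calcium-dependent membrane-binding protein, at chr6:86777314-86778242. It stood at 12.04, 7.59 and 9.19 CPM in WT Dex and 4.81, 5.13 and 5.65 CPM in WT control libraries, which did not overlap (log2 fold change 0.87 ± 0.17; edgeR adjusted p = 0.00263). Without the first WT Dex library it was 0.68 and not called (edgeR adjusted p = 0.163). For cKO over WT in Dex it was lower, at -0.84 ± 0.17 (edgeR adjusted p = 0.008), and not called without that library (adjusted p = 0.35) or the third cKO Dex library (0.0673). In all, 3 of the 749 peaks were called for cKO over WT in Dex, all lower (0.401%, against 0.13% of all tested peaks called lower). The third was a peak 32848 bases outside S100a10, the partner of annexin A2, at chr3:93597142-93597844. It stood at 30.9, 31.6 and 28.4 CPM in cKO Dex and 45.7, 44.4 and 39.3 CPM in WT Dex libraries (log2 fold change -0.51 ± 0.11; edgeR adjusted p = 0.0138). It was not called in 4 of the 12 fits that left out 1 library (adjusted p up to 0.226).

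Among these 73 genes, 65 of them with tested peaks, 3 gene sums were called for Dex in WT, all higher. The log2 fold changes were 0.22 ± 0.04 for S100a10 (edgeR adjusted p = 0.00032), 0.18 ± 0.04 for Lpcat3 (0.0206) and 0.17 ± 0.04 for Anxa3 (0.0353). Sums called higher for Dex in WT made up 1.64% of all gene sums. The S100a10 sum was called in all 12 fits that left out 1 library, the Lpcat3 sum was not in 4 of them and the Anxa3 sum not in 8. These sums depend on which peaks a gene is given. With only the peaks within the span, the S100a10 value was 0.11 and not called (edgeR adjusted p = 0.568) and the Anxa3 value was -0.04 (edgeR adjusted p = 0.933), while the Lpcat3 sum stayed called. With a 10 kb limit the Anxa3 value was -0.03 (edgeR adjusted p = 0.941). For cKO over WT in Dex the sum of Slco2a1, a prostaglandin transporter, was called and higher by 0.29 ± 0.08 (edgeR adjusted p = 0.0452), as were 1.3% of all gene sums. It was not called in 8 of the 12 fits that left out 1 library (adjusted p up to 0.271), and was 0.09 with a 10 kb limit and 0.08 within the span (edgeR adjusted p = 0.823 and 0.844). It was also not called with limma-voom, with relative log expression factors or with only the libraries compared. Without Dex the Slco2a1 sum was also higher in cKO cells, at 35.64, 41.79 and 41.47 CPM in cKO control libraries. WT control libraries had 32.05, 33.91 and 30.56 CPM. The interaction of the Slco2a1 sum was 0.01 ± 0.11 and not called (edgeR adjusted p = 0.993). The interaction and the genotype comparison in control cells gave 0 called peaks and 0 called sums in these 4 pathway lists.

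The 50 kb limit decided which peaks were counted. The farthest peak inside it belonged to Ptger2, 46998 bases from the gene at 1.08 CPM, with a log2 fold change for Dex in WT of -0.23. The nearest one outside it also lay by Ptger2, 55107 bases away at 0.98 CPM, with -0.16.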

How the data were processed

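The authors deposited whole-number counts for 1 joint peak set over 12 libraries, not normalised per the file headers. The submitters' processing notes name the build mm10 and, without their roles, featureCounts 2.1.1 with Subread, Genrich 0.6.1, deepTools 3.5.6, SAMtools 1.3, Picard 2.18.27, Bowtie2 2.3.5 and Trimmomatic 0.39. Shifting of reads to the cut site, the counting of reads or fragments, and the pooling of libraries for peak calling are not stated in the sources used here. A joint peak set made with Dex-treated libraries in it can favour sites open there. PCR copies carried no molecular identifiers, so 16 cycles of amplification can add to the counts.

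Peaks passing filterByExpr (minimum count 10, minimum total 15) were scaled by TMM and fitted with edgeR 4.0.16 (robust quasi-likelihood F-test, R 4.3.3), with all 12 libraries, 1 coefficient per group and 8 residual degrees of freedom. Two-sided p-values were corrected by Benjamini-Hochberg across every tested peak, or across every gene sum, with a threshold of 0.05. The SE of a log2 fold change was taken as its absolute value over the root of F. CPM uses TMM-scaled totals, and CPM per kb divides by peak width. The steps were also run on simulated counts with the same spread for every peak or gene sum. That check does not cover differences in quality between libraries.

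Genes were placed by the RefSeq table of GRCm38.p6, and a centre in several spans, or equally near spans, counted for each gene. Position alone does not say which gene a peak regulates. Of each gene the text names the strongest peak, the peak with the smallest p for Dex in WT, the peak over the start, every called peak and the peak with the smallest p in the interaction. Genes of the other lists are named where a peak or sum was called. The members and lists were chosen with earlier results of these data known. The genome sequence was not used here.

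Alternatives were other scalings, no filter, DESeq2 1.42.0, limma-voom (limma 3.58.1), a replicate block, the share of counts in the strongest 10% of peaks as covariate, only the libraries compared, each library left out, and tighter gene assignment. Libraries of 1 group differed by more than sampling noise (chi-square per degree of freedom 2.05 to 3.69), so none was merged. Replicate numbers are from the sample titles. Deviations of same-numbered libraries from their group means correlated above 0.1 in all 3 pairs (0.131, 0.157 and 0.22 over 74617 peaks) for cKO Dex and WT Dex, so the numbers were taken to pair these libraries, and in no other pair of groups.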

Additional observations from a re-analysis of the deposited data

How the results depend on the processing

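The Cysltr2 peak 7309 bases upstream kept its call for Dex in WT in every fit that tested it, with log2 fold changes from -1.026 to -0.967 over the alternatives and -1.042 to -0.9329 with 1 library left out. The count of called peaks of the 10 genes for Dex in WT was 2 with the share of counts in the strongest peaks as covariate, which added the distant Ptger2 peak, and 0 when only peaks within a span counted, since the Cysltr2 peak lies outside. With 1 library left out it was 1 throughout. For the interaction it was 1 with that covariate. For cKO over WT in Dex it was 3 with the covariate, which added a Ptger2 peak at chr14:45040362-45041689 (0.52, edgeR adjusted p = 0.0126, against 0.18 and 0.802 without the covariate). It was 1 with relative log expression factors, with no filter on low counts, with limma-voom and with a 10 kb limit, and 0 within spans. It was 0 with DESeq2, where filtering left adjusted p-values for 5 of the 127 peaks and for neither called one. With 1 library left out it ranged from 0 to 2.

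The count of called gene sums for cKO over WT in Dex was 1 with DESeq2, with the replicate block and with only the libraries compared, and 2 with the covariate (Cysltr2 and Ptger2). With 1 library left out it ranged from 0 to 1, and Cysltr2 was called without the first or the second cKO control library.

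The replicate block left the peak counts of the 10 genes at 1 for Dex in WT, 2 for cKO over WT in Dex and 0 elsewhere, and changed no other call of theirs beside the Cysltr2 sum. Over all peaks the block gave 1747 calls for Dex in WT against 1081 without it, 173 against 21 for genotype in control, and 99 against 56 for the interaction. Outside cKO Dex with WT Dex no pair of groups had all 3 correlations above 0.1, so the numbers were not taken to pair them. That cut does not settle whether those libraries are paired. Correlations of same-numbered libraries ran from -0.124 to 0.227 there, and in 12 of all 18 same-numbered pairs a library correlated best with its own number. All 3 were above 0 for cKO Dex with cKO control (0.0971, 0.227 and 0.0604) and WT control with cKO control (0.114, 0.151 and 0.0186). They were also above 0 for WT Dex with cKO control (0.0339, 0.12 and 0.0241), but not for WT Dex or cKO Dex with WT control.

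Directions changed for Dex in WT at the called Anxa3 sum and at uncalled values. The values were, with the covariate, -0.01406 for the Anxa1 sum, -0.06898 for the strongest Ptger2 peak, -0.058 for the Ptger2 sum and 0.07098 for the Pla2g4a sum. With a 10 kb limit they were -0.03733 (Anxa1 sum), -0.1305 (Alox5ap sum), -0.0141 (Ptger2 sum), -0.04276 (Ptgs2 sum) and -0.03096 (Anxa3 sum), and within spans -0.1276 (Anxa1), -0.07721 (Alox5ap), -0.04066 (Anxa3) and 0.03801 (Cysltr2). With relative log expression factors they were 0.0003409 at the strongest Cysltr1 peak and 0.00372 at the strongest Cysltr2 peak, with DESeq2 0.003644 at the same Cysltr2 peak, with limma-voom -0.04877 at the strongest Alox5 peak, and with total counts -0.007177 for the Ptger2 sum. At the Cysltr2 peak 7309 bases upstream, Dex in cKO was 0.006608 with relative log expression factors and 0.006876 with DESeq2, and genotype in control 0.003371 with total counts. With 1 library left out, values for Dex in WT ranged from -0.02311 to 0.1054 (Anxa1 sum), -0.07664 to 0.05352 (strongest Cysltr1 peak), -0.07847 to 0.05796 (strongest Cysltr2 peak), -0.2244 to 0.4274 (strongest Alox5 peak), -0.007748 to 0.3141 (Alox5 sum), -0.0258 to 0.03024 (Ptger2 sum), -0.1306 to 0.1914 (strongest Ptgs2 peak), -0.1327 to 0.1221 (Ptgs2 sum), -0.3664 to 0.2582 (strongest Pla2g4a peak) and -0.1828 to 0.1502 (Pla2g4a sum). Dex in cKO ranged from -0.09429 to 0.06454 at the Cysltr2 peak 7309 bases upstream and from -0.03787 to 0.6502 at the one 27616 bases upstream, where genotype in control ranged from -0.05435 to 0.6266. The cause of these changes was not tested.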
